A study of Mus musculus with 9 samples.

Results

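The Notch receptor genes of the mouse, Notch1, Notch2, Notch3 and Notch4, were followed across whole embryos of 5 genotypes. All probe sets annotated to exactly 1 of these symbols were taken, without regard to their values. This gave 8 probe sets of 4 genes, 2 per gene, out of 22690 probe sets on the array and 12393 genes with a probe set of their own. RNA came from whole embryos at 9.5 days post coitum, hybridised to 9 Affymetrix arrays, the small number of which limits the precision of every value. The Notch1 null group (2 arrays) was Notch1tm1Con/tm1Con and the Notch1 het group (1 array) Notch1tm1Con/+. The Dll3 null group (2 arrays) was Dll3neo/neo and the Dll3 het group (2 arrays) Dll3neo/+, while the wild type group (2 arrays) was +/+ at both loci. The strain C57BL/6J is named for Notch1 null replicate 1, and the labels used here name none for the other arrays. They do not say whether an array holds 1 embryo or a pool, nor whether replicates came from different litters. Each p-value below therefore reflects array-to-array spread alone. In Notch1 null, Dll3 het and Dll3 null the 2 replicates differed in embryo sex, as read from Xist and Eif2s3y. These replicates were thus not repeat arrays of 1 RNA sample. For the 2 wild types, both of male pattern, the spread may be technical.

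Notch receptors are single-pass membrane proteins that bind Delta and Jagged ligands on neighbouring cells. Ligand binding leads to cleavage by ADAM proteases and then by gamma-secretase, and the freed intracellular domain enters the nucleus, where it binds RBPJ and a Mastermind coactivator and turns on target genes such as the Hes and Hey repressors and the feedback inhibitor Nrarp. Dll3 is a divergent ligand that does not activate Notch in neighbouring cells and is needed for somite formation. In the midgestation embryo Notch1 is known from presomitic mesoderm, neural tube and endothelium, Notch2 from many tissues, Notch3 from neural tube and, later, mural cells of vessels, and Notch4 mainly from endothelium.

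The deposited values are ratios of a probe set's signal to a number of its own. All 8 receptor probe sets had a median of exactly 1 over the 9 arrays, so their level relative to each other, and whether a transcript was detected at all, cannot be read from them. For the same reason the tissue label could not be checked against the level of marker genes. A whole-embryo ratio also cannot tell fewer cells of a type from less RNA per cell. The spike-in control dap, added to the RNA before labelling, had its highest mean ratios over 3 probe sets in the wild types (6.98 and 9.54). The Notch1 nulls stood at 5.50 and 2.92, the Notch1 het array at 1, and the 4 Dll3 arrays between 0.452 and 0.483. Xist and Eif2s3y marked replicate 1 of each of the 4 groups with a targeted allele as female and the remaining 5 arrays, both wild types included, as male.

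The sequence before the start of the 2 receptor genes with a called change is shown. It was searched for the core of the site bound by RBPJ, the DNA-binding factor of the pathway, and for the core of the hypoxia response element, bound by the factors that respond to low oxygen. The 250 bases before the RefSeq start were read for each gene in build GRCm38.p6, 5′ to 3′ on the gene's strand, and capitals mark matches to the hypoxia response element core, ACGTG or GCGTG on either strand.
Notch1, chr2:26503823-26504072, minus strand: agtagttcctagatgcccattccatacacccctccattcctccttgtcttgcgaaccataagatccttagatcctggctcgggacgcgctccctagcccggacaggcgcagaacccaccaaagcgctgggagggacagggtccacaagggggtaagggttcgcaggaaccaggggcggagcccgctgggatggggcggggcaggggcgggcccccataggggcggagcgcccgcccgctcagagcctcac
Notch3, chr17:32166891-32167140, minus strand: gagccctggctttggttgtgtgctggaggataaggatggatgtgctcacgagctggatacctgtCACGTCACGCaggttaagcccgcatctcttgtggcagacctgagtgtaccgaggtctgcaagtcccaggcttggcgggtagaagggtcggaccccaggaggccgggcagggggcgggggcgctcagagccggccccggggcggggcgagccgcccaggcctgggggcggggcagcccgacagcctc
The RBPJ core TGGGAA, searched on both strands, was found in 0 of the 4 receptor windows, beside 21.6% of the 32851 windows of this length in the RefSeq table. The hypoxia core was found in 38.6% of all windows. It was absent from the Notch1 window and present 2 times in that of Notch3, as cacgt and the adjoining cacgc, and 1 time each in those of Notch2 and Notch4. The windows of Notch1, Notch2 and Notch3 were rich in G and C, at 66%, 72% and 68.8%, against a median of 52.4% over all windows, and that of Notch4 stood at 58.4%. Their ratios of observed to expected CpG were 0.588, 1.06 and 0.595 for these 3 genes and 0.226 for Notch4, with a median of 0.373 over all windows. A match is a description of letters and says nothing on binding in these embryos.

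Notch1, the receptor targeted in the Notch1 arrays, gave a higher signal in embryos homozygous for its own targeted allele than in any other group. At probe set 1418633_at the ratio was 1.47 and 1.69 in Notch1 null, 1.08 in the Notch1 het array, 0.916 and 1.01 in wild type, 1.00 and 0.861 in Dll3 het, and 0.752 and 0.894 in Dll3 null. Both Notch1 null arrays lay above all 7 others. The other probe set, 1418634_at, read 1.31 and 1.74 in Notch1 null, 1.06 in Notch1 het, 0.974 and 1.02 in wild type, 0.692 and 0.863 in Dll3 het, and 1.00 and 0.602 in Dll3 null. Here too the Notch1 null arrays were the 2 highest.

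Ordered by group mean, 1418633_at ran from Notch1 null (1.58 ± 0.154, SD, n = 2) through Notch1 het (1.08, n = 1), wild type (0.964 ± 0.0672, n = 2) and Dll3 het (0.931 ± 0.0983, n = 2) to Dll3 null (0.823 ± 0.1004, n = 2). Wild type and Dll3 het did not differ beyond their replicate spread. The arrays of Dll3 het and Dll3 null overlapped. At 1418634_at the order was Notch1 null (1.53 ± 0.306), Notch1 het (1.06), wild type (0.996 ± 0.0311), Dll3 null (0.801 ± 0.281) and Dll3 het (0.778 ± 0.121), the last 2 again closer than their replicates. The signal did not fall with the number of targeted Notch1 alleles in these arrays. The sources used here do not place these probes relative to the targeted sequence, so the signal does not check the labels.

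**Figure D1:**
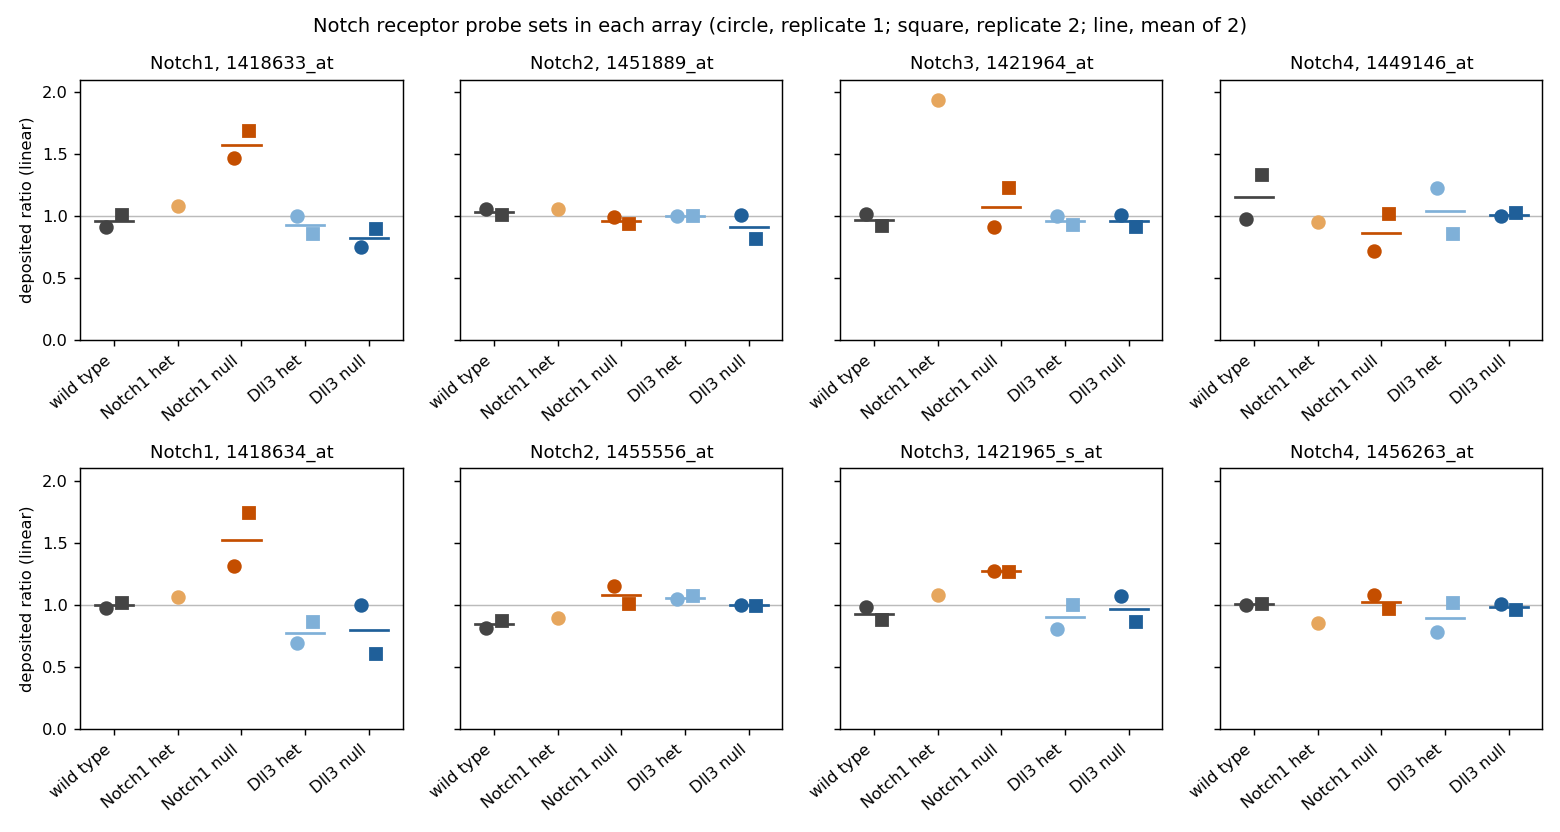
Deposited linear ratio (vertical axis) of the 8 Notch receptor probe sets in each of the 9 arrays, by genotype; circles are replicate 1, squares replicate 2 and lines the mean of 2 arrays. Both Notch1 probe sets are highest in the 2 Notch1 null arrays (1.31 to 1.74), and Notch3 1421964_at stands alone at 1.94 in the single Notch1 het array.

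Against wild type, Notch1 at 1418633_at rose 1.63-fold in Notch1 null (log2 0.71 ± 0.13 SE, 95% confidence interval 0.41 to 1.01, limma adjusted p = 0.0138). Of the 22626 probe sets tested, 353 had a higher fold change and 731 a lower p. At 1418634_at the fold was 1.52 (log2 0.60 ± 0.23, interval 0.09 to 1.12, adjusted p = 0.142), which did not pass. With both probe sets averaged, Notch1 was 1.58-fold higher (adjusted p = 0.0110 among 12393 genes). The call at 1418633_at ended without Notch1 null replicate 2 (adjusted p = 0.118), without wild type replicate 1 (0.0915) and without wild type replicate 2 (0.0662), with log2 changes of 0.61, 0.64 and 0.78. It was as large among the 5 wild-type and Notch1 arrays alone (log2 0.71, adjusted p = 0.0259) and with embryo sex in the fit (log2 0.75, adjusted p = 0.0261). Since dap was lower in both Notch1 null arrays than in both wild types, preparation that follows this control cannot be told apart from genotype.

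Against its heterozygous array, Notch1 null had log2 differences of 0.54 ± 0.16 (adjusted p = 0.134) and 0.51 ± 0.28 (adjusted p = 0.403) at the 2 Notch1 probe sets. Notch1 het differed from wild type by 0.17 ± 0.16 and 0.09 ± 0.28 (adjusted p = 0.663 and 0.915). None of these 4 differences passed, and the single het array is assumed in the fit to vary like the other groups.

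Set against each other, the nulls differed at both Notch1 probe sets. Notch1 null exceeded Dll3 null 1.92-fold at 1418633_at (log2 0.94 ± 0.13, interval 0.64 to 1.24, adjusted p = 0.00763) and 1.95-fold at 1418634_at (log2 0.96 ± 0.23, interval 0.45 to 1.48, adjusted p = 0.0420). This contrast is also the test of whether the change from wild type differs between the 2 genotypes, since the wild-type arrays cancel in it. Of 19 alternatives, 12 ended the call at 1418634_at. Its adjusted p was 0.0588 with replicate number as a block, 0.0627 with embryo sex, 0.0799 and 0.288 without Notch1 null replicates 1 and 2, 0.0804 without either wild type, 0.0651 without either Dll3 het array and 0.148 without Dll3 null replicate 2. The log2 difference stayed at 0.96 with the block, with sex and without either wild type or Dll3 het array, and was 0.76 without Notch1 null replicate 2 and 0.60 without Dll3 null replicate 2. At 1418633_at 3 of 19 ended it, with an adjusted p of 0.0716 on the arrays of these groups alone, 0.0867 without Notch1 null replicate 2 and 0.0531 without Dll3 null replicate 1. The level of dap separates all Notch1 arrays from all Dll3 arrays, so preparation and genotype cannot be told apart in this contrast.

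In the Dll3 embryos Notch1 signal lay at or below that of wild type without passing the test. The log2 difference of Dll3 null from wild type was -0.23 ± 0.13 at 1418633_at (interval -0.53 to 0.07, adjusted p = 0.622) and -0.36 ± 0.23 at 1418634_at (interval -0.87 to 0.15, adjusted p = 0.650). For Dll3 het the same differences were -0.05 ± 0.13 (adjusted p = 0.890) and -0.37 ± 0.23 (adjusted p = 0.481). At 1418634_at the interval for Dll3 null is wide enough to hold a fall as large as the rise seen in Notch1 null, so these values do not show that Notch1 was unaltered.

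Notch2, a broadly expressed receptor, was the least variable of the 4 at its probe set 1451889_at: the 9 arrays ranged from 0.817 to 1.06, and 79.9% of all probe sets had a larger SD. The ratios were 0.991 and 0.941 in Notch1 null, 1.06 in Notch1 het, 1.06 and 1.01 in wild type, 1.00 in both Dll3 het arrays, and 1.01 and 0.817 in Dll3 null. The Notch1 null arrays lay just below both wild types and the Notch1 het array just above them. The second probe set, 1455556_at, read 1.16 and 1.01 in Notch1 null, 0.892 in Notch1 het, 0.816 and 0.870 in wild type, 1.05 and 1.07 in Dll3 het, and 1.00 and 0.992 in Dll3 null. Here both wild types were the lowest of all 9 arrays. Its log2 difference from wild type was 0.36 ± 0.11 in Notch1 null (adjusted p = 0.0737), 0.33 ± 0.11 in Dll3 het (adjusted p = 0.183), 0.24 ± 0.11 in Dll3 null (adjusted p = 0.497) and 0.08 ± 0.13 in Notch1 het (adjusted p = 0.814). These 4 differences share the 2 wild-type arrays, and none passed. At 1451889_at the differences from wild type lay between -0.18 (Dll3 null) and 0.03 (Notch1 het), so the 2 Notch2 probe sets did not move alike, and their values over the 9 arrays had a Pearson correlation of -0.32.

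Notch3 had 1 high array. At 1421964_at the Notch1 het array read 1.94, while Notch1 null read 0.917 and 1.23, wild type 1.02 and 0.921, Dll3 het 1.00 and 0.927, and Dll3 null 1.01 and 0.910. Without the het array the whole range was thus 0.910 to 1.23. Notch1 het exceeded wild type 1.99-fold there (log2 1.00 ± 0.18, interval of the fold 1.51 to 2.64, adjusted p = 0.0265), and Notch1 null was 1.82-fold below Notch1 het (log2 -0.87 ± 0.18, interval -1.27 to -0.46, adjusted p = 0.0485). Both calls rest on that single array, which has no replicate, and they ended in 8 of 19 and 14 of 19 alternatives. Embryo sex in the fit gave adjusted p of 0.0913 and 0.103, replicate number as a block gave 0.0503 and 0.0946, and the 5 wild-type and Notch1 arrays alone gave 0.0742 and 0.110. The log2 differences were as large there, at 1.05 and -0.89 with sex and 1.00 and -0.87 with the block. Both calls also ended without either wild type and without either Dll3 het array. Without wild type replicate 1 or 2 the log2 difference of Notch1 het from wild type was 1.07 or 0.92. That of Notch1 null from Notch1 het stayed at -0.87, and both were unchanged without either Dll3 het array. The call of Notch1 null against Notch1 het also ended without Notch1 null replicate 1 (log2 -0.65) or 2 (log2 -1.08). It ended too without either Dll3 null array, with log2 unchanged at -0.87.

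The other Notch3 probe set did not show that array as high. At 1421965_s_at, a type of probe set whose probes may match more than 1 transcript, the het array read 1.08, Notch1 null 1.28 and 1.27, wild type 0.983 and 0.879, Dll3 het 0.806 and 1.00, and Dll3 null 1.07 and 0.861. The 2 Notch1 null arrays were the highest of the 9 and nearly equal. Their log2 difference was 0.45 ± 0.14 from wild type (interval 0.13 to 0.78, adjusted p = 0.0860) and 0.41 ± 0.14 from Dll3 null (adjusted p = 0.146), and neither passed. Within the het array the 2 Notch3 probe sets differed by 0.84 on the log2 scale, against differences from -0.48 to 0.31 in the other 8. Averaged, Notch3 in Notch1 het was 1.52-fold above wild type (adjusted p = 0.0625), and in Notch1 null 1.22-fold above it (adjusted p = 0.152).

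Notch4, known mainly from endothelium, passed in none of the 7 comparisons. Probe set 1449146_at read 0.717 and 1.02 in Notch1 null, 0.950 in Notch1 het, 0.979 and 1.33 in wild type, 1.23 and 0.855 in Dll3 het, and 1.00 and 1.02 in Dll3 null. The arrays of Notch1 null, wild type and Dll3 het overlapped, with SDs of 0.213, 0.248 and 0.263 around means of 0.868, 1.15 and 1.04. Notch1 null had a log2 difference of -0.42 ± 0.22 from wild type (interval -0.91 to 0.07, adjusted p = 0.292). At 1456263_at the ratios were 1.08 and 0.966 in Notch1 null, 0.856 in Notch1 het, 1.00 and 1.01 in wild type, 0.781 and 1.01 in Dll3 het, and 1.01 and 0.959 in Dll3 null, with a log2 difference of 0.03 ± 0.14 between Notch1 null and wild type (adjusted p = 0.939). The 2 Notch4 probe sets did not rank the arrays alike, with a Pearson correlation of -0.50 over the 9 arrays. The same value was 0.31 for Notch3 and 0.74 for Notch1, the highest of the 4 receptors.

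Counted over the 8 receptor probe sets, 1 rose and 0 fell in Notch1 null against wild type, in a comparison where 9.45% of all probe sets were called (3.46% higher and 5.99% lower). A count of 1 among 8 is near that background and says nothing on the receptors as a family. In Notch1 het against wild type 1 of 8 was higher and 0 lower, where 2.76% of all probe sets were called (0.99% higher and 1.77% lower). In Notch1 null against Notch1 het 0 were higher and 1 lower, where 1.78% were called (0.853% higher and 0.928% lower). Notch1 null against Dll3 null gave 2 higher and 0 lower, both of Notch1, where 5.74% were called (2.46% higher and 3.27% lower). By limma, 0 of 8 passed in Dll3 null against wild type, where 0.0884% of all were called (0.0177% higher and 0.0707% lower), 0 in Dll3 het against wild type, where 0.486% were (0.186% higher and 0.301% lower), and 0 in Dll3 null against Dll3 het, where 0% were. None of the alternative fits run called a receptor probe set in these 3 comparisons.

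At an unadjusted p under 0.05 the counts of the 8 were 4 in Notch1 null against wild type (23.6% of all probe sets), 2 against Notch1 het (17.1%) and 3 against Dll3 null (20.5%). They were 1 for Notch1 het (19.4%), 0 for Dll3 null (10.2%) and 1 for Dll3 het (16%) against wild type, and 0 for Dll3 null against Dll3 het (5.31%). The arrays of Notch1 null lay apart from those of wild type at 5 of the 8, with 55.2% of all probe sets so parted, from Notch1 het at 7 (76.2%) and from Dll3 null at 4 (53.2%). Wild type lay apart from the single Notch1 het array at 8 (77.2%), from Dll3 null at 2 (40.7%) and from Dll3 het at 3 (47.2%), and both Dll3 groups lay apart at 1 (33.5%). The median log2 change of the 8 was 0.24 in Notch1 null against wild type, beside -0.03 over all probe sets tested, and -0.10 in Dll3 null, beside 0.0065.

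**Figure D2:**
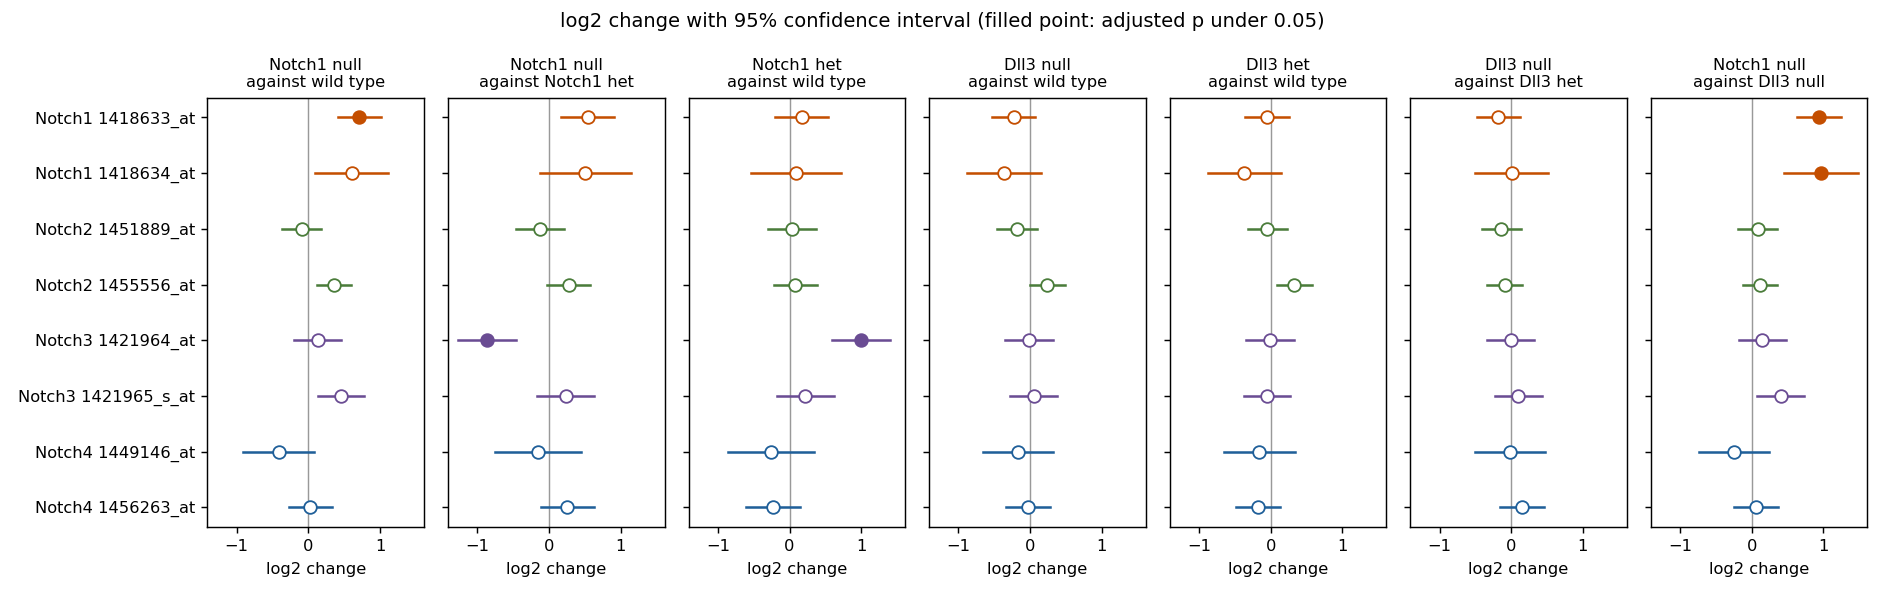
The log2 change (horizontal axis) of each receptor probe set in the 7 comparisons, with its 95% confidence interval; filled points have an adjusted p under 0.05. The 2 Notch1 probe sets lie to the right of 0 in all 3 comparisons of Notch1 null, Notch3 1421964_at has a filled point in the 2 comparisons that include the single Notch1 het array, and the 3 comparisons of Dll3 arrays with wild type or each other have no filled point.

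**Figure D3:**
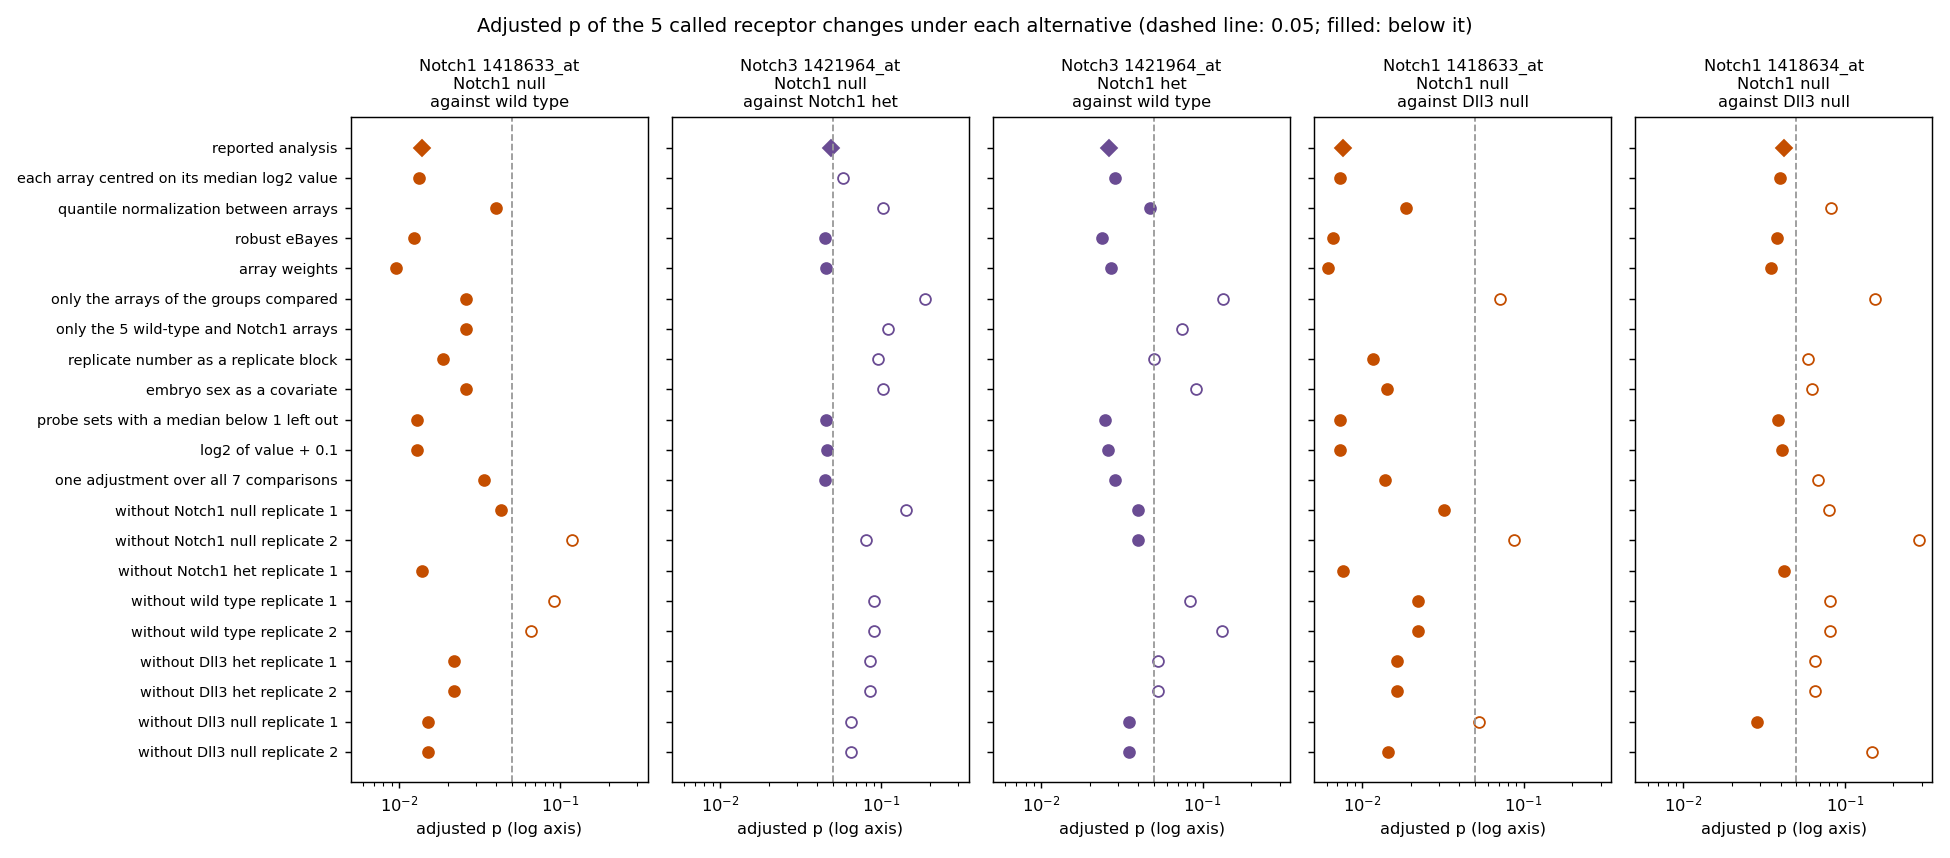
Adjusted p (log axis) of the 5 receptor changes that passed, in the reported analysis (diamond) and each alternative (circle), with the 0.05 threshold dashed. The rise of Notch1 1418633_at in Notch1 null ends in 3 of 20 alternatives against wild type and 3 of 19 against Dll3 null, and the other 3 calls end in 8 to 14 of 19.

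The rest of the pathway was read from lists of its steps. In Notch1 null, 0 of the 11 probe sets for 7 ligand genes passed against wild type (median log2 change -0.02), and the lowest p belonged to Jag1, a ligand of the Serrate type (log2 -0.39 ± 0.14, adjusted p = 0.132, and -0.33 ± 0.19, adjusted p = 0.335). Of 10 probe sets of 6 genes for glycosylation of the receptors 0 passed (median -0.12), with the fringe genes Mfng (log2 -0.47 ± 0.15, adjusted p = 0.0765) and Rfng (-0.36 ± 0.11, adjusted p = 0.0833) lowest in p. Of 30 probe sets of 17 genes for processing and trafficking of receptors and ligands 2 rose and 0 fell (median 0.07), near the 3.46% of all probe sets that were higher. These were Adam10, the protease of the first cleavage (1.39-fold, log2 0.47 ± 0.10, adjusted p = 0.0224), and Numb, an inhibitor of Notch (1.42-fold, log2 0.51 ± 0.13, adjusted p = 0.0397). The Numb call ended in 12 of 20 alternatives and that of Adam10 in 5 of 20. Against the same wild types, the log2 changes in Dll3 null were 0.47 ± 0.13 for Numb and 0.66 ± 0.10 for Adam10. Neither passed (limma adjusted p = 0.276 and 0.0698). Of 17 probe sets of 11 nuclear effector genes 0 passed (median 0.03): Spen, a corepressor of RBPJ, had a log2 change of 0.44 ± 0.13 (adjusted p = 0.0597) and Rbpj, which encodes the DNA-binding partner of the receptors, 0.34 ± 0.11 (adjusted p = 0.0857).

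The list of target genes was chosen with earlier results of these data known, so its counts are a description and not a test. Target genes of the pathway went the other way from Notch1 itself in the Notch1 null arrays. Of 26 probe sets of 14 genes 10 fell and 0 rose, with a median log2 change of -0.23, beside 5.99% of all probe sets lower. Those that fell included 2 probe sets of Hes5, a repressor kept on by Notch in neural progenitors (log2 -1.70 ± 0.12 and -1.17 ± 0.12). There were also 3 of Id4, an inhibitor of bHLH factors (-1.35 ± 0.23, -0.86 ± 0.12 and -1.17 ± 0.14). The others were 2 of Nrarp (-1.15 ± 0.21 and -0.59 ± 0.13), 2 of cyclin D1, Ccnd1 (-0.68 ± 0.14 and -0.55 ± 0.11), and 1 of Heyl (-0.60 ± 0.10). The count was 4 without Notch1 null replicate 2, 4 without wild type replicate 1, and 6 without either Notch1 null replicate 1 or wild type replicate 2. In Dll3 null 0 of the 26 passed, beside 0.0707% of all probe sets lower. The lowest p there belonged to Id4 (log2 -0.90 ± 0.14, adjusted p = 0.0731). In Dll3 het 2 fell (Hes5, log2 -0.68 ± 0.12, and Id4, -0.999 ± 0.14), beside 0.301% of all probe sets lower. In Notch1 het 5 fell (2 of Hes5 and 3 of Id4), beside 1.77% of all probe sets lower. These comparisons share the wild-type arrays. In Dll3 het 0 of all probe sets tested were called with embryo sex in the fit, without either Dll3 het array or without wild type replicate 2, and in Notch1 het 0 were called without either wild type, so both counts were 0 there.

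The other comparisons called few pathway genes. Notch1 het against wild type had Spen 2.35-fold higher (adjusted p = 0.0112), Snw1, a cofactor of RBPJ, 2.56-fold lower (adjusted p = 0.0162), and Psenen, a gamma-secretase subunit, 1.52-fold lower (adjusted p = 0.0497), all resting on 1 array and all lost without either wild type. Notch1 null against that array had Spen 1.73-fold (limma adjusted p = 0.0428), Lfng, a fringe glycosyltransferase, 1.56-fold (0.0463) and Hes5 1.68-fold lower (0.0417). In that comparison 0.928% of all probe sets were lower. These calls rest on the same 1 array, and 0 of all probe sets were called with only the arrays of these groups in the fit. Dll3 het against wild type had Adam10 1.70-fold higher (adjusted p = 0.0283), a call lost with embryo sex in the fit, without either Dll3 het array and without wild type replicate 2, while in Dll3 null it was at 1.58-fold (adjusted p = 0.0698). In Notch1 null against Dll3 null Jag1 was 1.69-fold lower at 1 probe set (adjusted p = 0.0471) and Spen 1.46-fold higher (adjusted p = 0.0388). Of the 26 target probe sets 6 were lower, of Hes5, Heyl, Nrarp, Ccnd1 and Id4, beside 3.27% of all probe sets lower. This comparison called 1298 of all probe sets, and 9 with only the arrays of its groups in the fit. Since dap separates these groups, preparation and genotype cannot be told apart here.

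Marker lists of endothelium and neural progenitors, tissues known to carry receptors, moved in the same arrays. The marker lists too were chosen with earlier results of these data known, so their counts are a description. Against wild type, 7 of 25 endothelium marker probe sets rose in Notch1 null and 0 fell, where 3.46% of all probe sets were higher and 5.99% lower, among them Kdr, a VEGF receptor (1.82-fold, adjusted p = 0.00939), and Sox17, of arterial endothelium (1.96-fold, adjusted p = 0.00294). The mean log2 ratio of that list was 0.12 and 0.34 in Notch1 null, 0.13 in Notch1 het, -0.05 and -0.01 in wild type, and between -0.07 and -0.01 in the Dll3 arrays. Of 20 probe sets of neural progenitor markers 11 fell and 0 rose, with list means of -0.47 and -0.43 in Notch1 null, -0.20 in Notch1 het and 0.00134 to 0.21 in the other 6 arrays. Of 21 of mural cell markers 3 rose, all of Rgs5, a regulator of G protein signalling in pericytes (up to 1.95-fold), and 2 fell, of Vtn, vitronectin (2.16-fold, adjusted p = 0.00894), and Anpep, an aminopeptidase (1.45-fold, adjusted p = 0.0248). Of 11 of presomitic mesoderm 1 rose (Cyp26a1, which degrades retinoic acid) and of 15 of primitive red cells 1 rose (Tfrc, the transferrin receptor), counts near the 9.45% called overall. The endothelium count was 1 without Notch1 null replicate 2 or without wild type replicate 1, 2 without wild type replicate 2, 3 after quantile normalization and 4 with 1 adjustment over all comparisons. The neural progenitor count was 4 without either Notch1 null array or without wild type replicate 1, 5 without wild type replicate 2, 6 after quantile normalization, and 7 with embryo sex or with 1 adjustment over all comparisons. For mural cells, presomitic mesoderm and red cells each count reached 0 in at least 1 alternative. Tfrc was not particular to Notch1 null. Against the same wild types it was also higher in Dll3 het (2.56-fold and 2.37-fold at 2 probe sets, limma adjusted p = 0.0265 at each). In Dll3 null it was 2.09-fold higher at 1 (adjusted p = 0.0403). The calls in Dll3 het ended with embryo sex in the fit, where 0 of all probe sets were called. The call in Dll3 null ended with only the arrays of the groups compared, where 0 were called. The part of these tissues in the Notch1 signal was not tested.

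**Figure D4:**
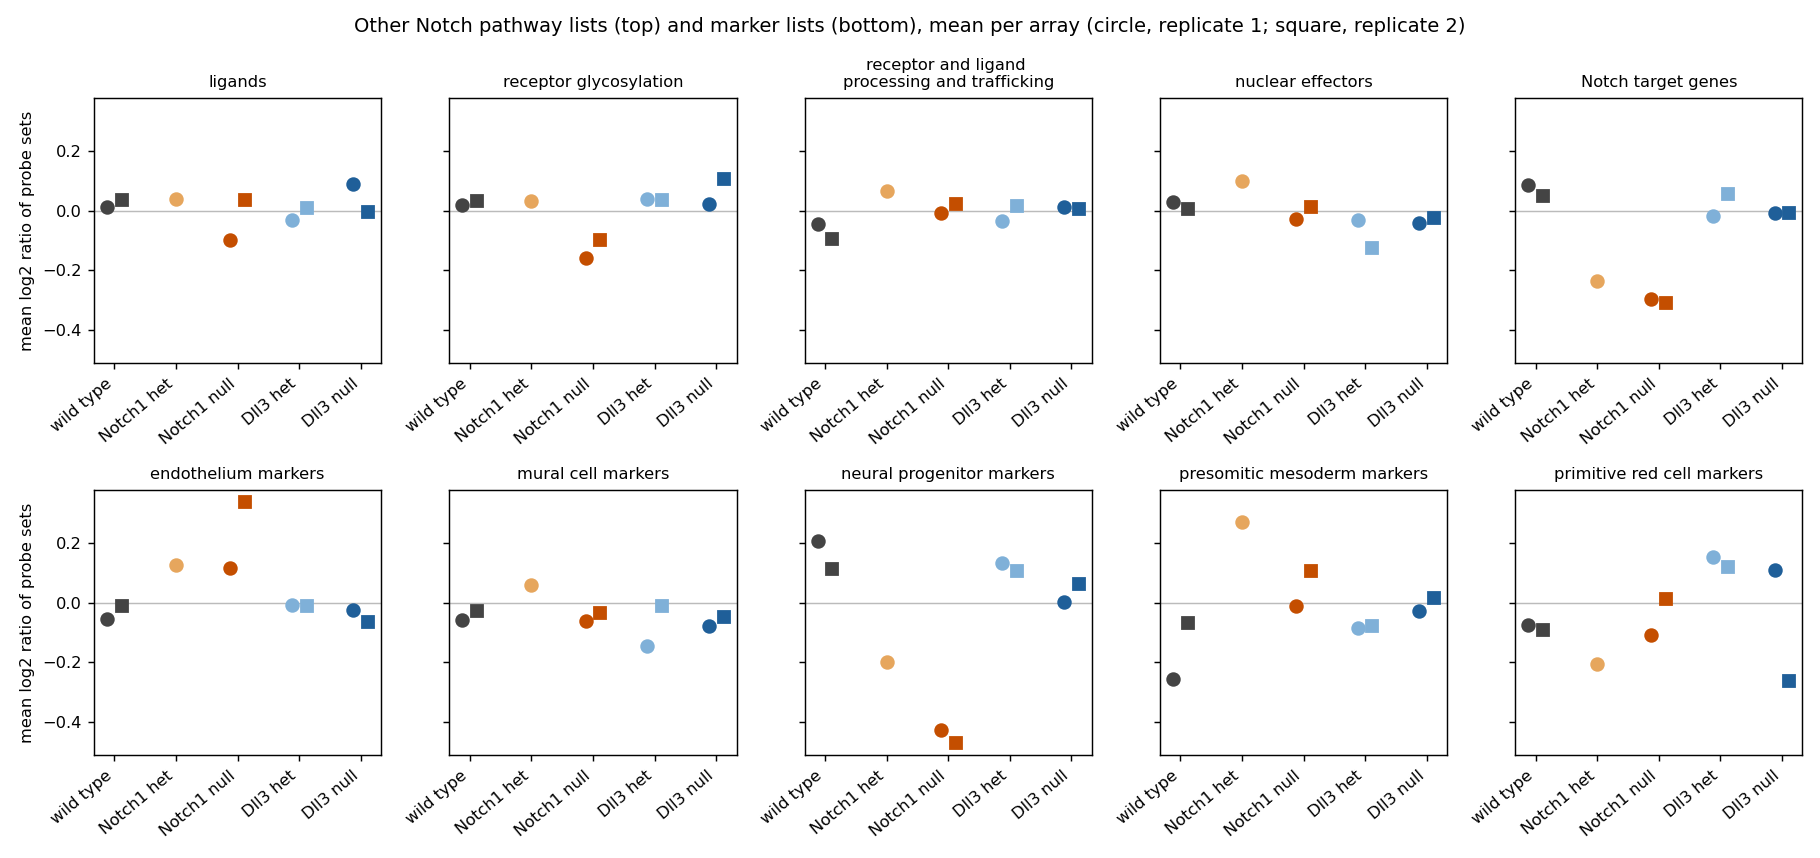
Mean log2 ratio (vertical axis) over the probe sets of each pathway list (top) and marker list (bottom) in each array, by genotype. Notch target genes lie between -0.31 and -0.23 in the 3 Notch1 arrays with a targeted allele, and at -0.02 or above in the other 6; the endothelium list lies between 0.12 and 0.34 in the 3 Notch1 arrays and below 0 in the rest.

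The genes whose values most resembled each receptor over the 9 arrays were listed by Pearson correlation, as a description. Each receptor was represented by the mean log2 value of its 2 probe sets. These correlated with each other at 0.74 for Notch1, 0.31 for Notch3, -0.32 for Notch2 and -0.50 for Notch4. Where the probe sets did not move alike, the mean may follow neither of them. For Notch1 these were Gys1, glycogen synthase (0.98), Scarb1, a lipoprotein receptor (0.98), Gtpbp2 (0.98), Ttc3 (0.98) and Cit, citron kinase (0.97). For Notch3 they were Plagl2 (0.98), Lmo2, a factor of blood and endothelium (0.98), Larp1 (0.98), B4galt6 (0.97) and Msn, moesin (0.97). For Notch2 they were Cyp2c65 (0.97), Omt2b (0.90), Slc38a5 (0.88), Agfg1 (0.88) and Il1rl2 (0.87), and for Notch4 Cygb, cytoglobin (0.97), Coro1a (0.95), Gpank1 (0.95), Cetn1 (0.95) and Rps18 (0.94). Correlations above 0.9 were found for 135 genes with Notch1, 1 with Notch2, 70 with Notch3 and 16 with Notch4, of 12392 genes compared. Ranked by Spearman correlation, 0 of the 5 genes were the same for Notch1 and Notch4, 2 for Notch2 and 1 for Notch3, so the names depend on the measure, and arrays of 1 group share their source.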

How the data were processed

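The submitters' processing notes name RMA, with no version. The deposited values are linear ratios, as read from the file: for 19847 of 22690 probe sets (87.5%) the median of the 9 arrays is exactly 1, and it exceeds 1 for 0, so each was divided by a number of its own. No source used here states that step. It keeps fold changes between arrays and removes levels, so the platform's probe sets could not be filtered by level.

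Ratios were converted to log2 with no pseudocount. Leaving out 64 control probe sets, limma 3.58.1 was run in R 4.3.3 on 22626 (functions lmFit and eBayes, 1 mean per genotype, all 9 arrays; 4 residual and 5.42 prior degrees of freedom), two-sided and with Benjamini-Hochberg adjustment within each of 7 comparisons and a threshold of 0.05. With 2 arrays against 2, an exact permutation test cannot go below p = 0.333 and was not used. Symbols come from the platform annotation; 20380 probe sets tested carry 1 symbol, 691 several and 1555 none, and those without a single symbol were not named. Promoter windows are from RefSeq. The fit was tested on simulated data.

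The receptors and the lists of pathway genes (ligands, receptor glycosylation, processing and trafficking, nuclear effectors, targets) and markers (endothelium, mural cells, neural progenitors, presomitic mesoderm, primitive red cells) were chosen with earlier results of these data known. Named are all receptor probe sets, pathway probe sets that passed and otherwise the 2 of lowest p per list and comparison (printed in full for Notch1 null against wild type), and the 5 genes most correlated with each receptor; markers named were chosen after their values were seen. Alternatives were other scalings, variance models, samples in the fit, replicate number as a block, embryo sex and averaged probe sets. A pseudocount of 0.1, 1 adjustment over all comparisons and leaving out each array were also tried. A further alternative left out probe sets with a median ratio below 1. Since the divisor is not stated, whether this acts as a filter on level is not known.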

Additional observations from a re-analysis of the deposited data

Results flagged for a closer look

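The change of Notch1 from wild type differed between the null genotypes, by the test of Notch1 null against Dll3 null, in which the wild-type arrays cancel. At 1418633_at the difference was 0.94 on the log2 scale (limma adjusted p = 0.00763), and at 1418634_at it was 0.96 (adjusted p = 0.0420), with both Notch1 null arrays above both Dll3 null arrays at each probe set. Of 19 alternatives, 12 ended the second call, whose adjusted p was 0.0588 with replicate number as a block, 0.0627 with embryo sex and 0.148 (log2 0.60) without Dll3 null replicate 2, and 3 ended the first. The spike-in dap separates these groups (5.50 and 2.92 against 0.452 and 0.483), so preparation and genotype cannot be told apart. Groups of 2 arrays are too small to look for single arrays that stand apart.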

How the results depend on the processing

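The 56 log2 changes of receptor probe sets were recomputed in 1080 alternatives: 1004 kept their direction and side of the threshold, 40 lost a call, 0 gained one and 36 changed sign, 0 of them among called values. The count of called receptor probe sets in Notch1 null against wild type stayed at 1 in 18 of 21 alternatives and ranged from 0 to 1 when each array was left out. For Notch1 het against wild type, reported as 1, it was 0 with embryo sex, with replicate number as a block, with only the groups compared, with the 5 wild-type and Notch1 arrays and with averaged probe sets, and 0 to 1 with arrays left out. For Notch1 null against Notch1 het, reported as 1, it was 0 in those alternatives and with median centring and quantile normalization, and 0 without any one of the arrays left out in turn, other than the het array itself, without which the comparison cannot be made. For Notch1 null against Dll3 null, reported as 2, it was 1 with embryo sex, replicate number as a block, quantile normalization and 1 adjustment over all comparisons, 0 with only the groups compared, and 0 to 2 with arrays left out. The cause of these losses was not tested. Over all probe sets, 2139 were called in Notch1 null against wild type, 969 after quantile normalization, 1150 with 1 adjustment over all comparisons, and 306 to 2139 with arrays left out.

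Replicate differences correlated between groups from -0.10 to 0.16, and the labels give no litter or day shared by a replicate number. Among arrays with a targeted allele, however, replicate 1 was female and replicate 2 male by Xist and Eif2s3y. The replicate block and the sex covariate therefore largely coincide and are not independent alternatives. The block changed no other call of a receptor probe set.

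Signs changed for differences that had not passed. With embryo sex they became -0.10 for Notch2 1451889_at in Notch1 het, and 0.016 and 0.0099 for Notch3 1421964_at in Dll3 het and Dll3 null, each against wild type; with the replicate block the first was -0.023. Leaving out arrays gave, in Dll3 het against wild type, -0.16 to 0.055 at 1418633_at, -0.086 to 0.064 at 1421964_at, -0.21 to 0.11 at 1421965_s_at, -0.42 to 0.10 at 1449146_at and -0.36 to 0.013 at 1456263_at. In Dll3 null against wild type it gave -0.73 to 0.0061 at 1418634_at, -0.092 to 0.058 at 1421964_at, -0.11 to 0.21 at 1421965_s_at, -0.39 to 0.048 at 1449146_at and -0.066 to 0.010 at 1456263_at. In Dll3 null against Dll3 het it gave -0.36 to 0.37 at 1418634_at, -0.29 to 0.020 at 1451889_at, -0.081 to 0.069 at 1421964_at, -0.060 to 0.26 at 1421965_s_at, -0.28 to 0.24 at 1449146_at and -0.041 to 0.33 at 1456263_at. In Notch1 null it gave -0.081 to 0.34 at 1421964_at and -0.056 to 0.11 at 1456263_at against wild type, -0.41 to 0.10 at 1449146_at against Notch1 het, and -0.070 to 0.24 at 1451889_at, -0.064 to 0.36 at 1421964_at, -0.50 to 0.0086 at 1449146_at and -0.028 to 0.14 at 1456263_at against Dll3 null.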
